A study of Arabidopsis thaliana with 6 samples.

Results

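The genes described here are 30 nuclear genes of Arabidopsis thaliana that encode subunits of photosystem I and photosystem II, the photosynthetic electron carriers and the chloroplast ATP synthase. They were taken by gene identifier from a list and make up 30 of the 33189 rows of the gene table. By role they are 12 genes of photosystem I, 10 of photosystem II, 6 of electron carriers and 2 of the ATP synthase. All 30 were found in the table, and all 30 passed the filter on low values. Total RNA of whole seedlings, 7 days old, had been sequenced in 6 libraries. The Col group held 3 libraries of wild-type plants of the ecotype Col. The tsk-4 group held 3 libraries of plants of the same ecotype with the mutant allele tsk-4 of TONSOKU (TSK), known for its role at damaged replication forks. No treatment is named in the labels, and the sources used here do not give the light the seedlings received, the nature of the tsk-4 lesion or the number of plant lines behind it. The labels do not say whether replicates were separate pools of plants. The p-values therefore reflect the spread among these libraries alone, which may be technical.

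Photosystem II takes electrons from water and passes them through the cytochrome b6f complex and the copper protein plastocyanin to photosystem I, which reduces ferredoxin. Ferredoxin-NADP reductase then makes NADPH, and the proton gradient built along the way drives the ATP synthase. The core proteins of these complexes are encoded in the plastid, while most small and peripheral subunits are encoded in the nucleus and imported into the chloroplast. Several of the nuclear subunits come from a pair of gene copies.

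TSK (AT3G18730) itself, the gene that tsk-4 affects, measured 3.73, 3.35 and 3.78 TPM in the Col libraries and 0.831, 0.959 and 0.918 TPM in the tsk-4 libraries (limma adjusted p = 0.00097), so every mutant library was below every Col library. The nuclear rows of the gene table held 13726929 to 14946295 reads per library. Over all genes 2912 were called higher and 971 lower, 75.0% of the calls being higher, and with median-ratio scaling 1802 and 1607, 52.9%.

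The transcripts of most of these genes were slightly less abundant in tsk-4. Of the 30 genes 19 fell and 0 rose (limma on log2(TPM + 0.5), adjusted p under 0.05 over the 19574 genes tested), where the same test called 4.96% of all tested genes lower and 14.9% higher, 19.8% in all. TPM, the length-scaled transcript abundance, is the unit the authors deposited, and each log2 change compares tsk-4 with Col, on the scale log2(TPM + 0.5), and carries limma's standard error. The median log2 change of the 30 genes was -0.21, against 0.083 over all tested genes, and 29 of the 30 values were below 0. The falls were small: the changes in mean TPM of the 19 ran from -10.1% (ATPD) to -25.8% (PSAG). In 25 of the 30 genes all tsk-4 libraries lay below all Col libraries, which held for 10.9% of tested genes, and in 1, PSBR, all lay above, which held for 26.7%. At the high levels of these genes falls were more common in general. Of the 426 tested genes with a mean TPM at or above the lowest of the 30, 25.8% were called lower and 20.7% higher, with a median log2 change of -0.027. These 426 include the 30 genes themselves. In whole seedlings fewer green cells and less of these transcripts per cell cannot be told apart.

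The number of genes called depended on the libraries and on the scaling. Without Col 2 it was 7, where 501 of all 19414 tested genes were lower. Without tsk-4 1 it was 12 (706 of 19326) and without tsk-4 3 it was 10 (578 of 19293). On all 6 libraries 971 of 19574 were lower, so fewer genes were called lower in the whole table as well. PSAE1, PSAF, PSAG, PSAL, PSAN, PETE2 and FD2, 7 genes, were called lower whichever library was left out. Quantile normalization, which gives every library the same distribution of values, called 8 of the 30 lower and 2 higher (PSAD1 and PSBR), against 8.48% and 8.71% of all tested genes, and turned PSAD1, PSBP1, PSBW, PSBX and PSBY upward. With median-ratio scaling 23 were lower and 0 higher, against 8.21% and 9.21% of all tested genes. With limma-voom on reads recovered from the TPM 28 were lower and 0 higher, against 9.03% and 9.67%. With the replicate number as a block 14 were lower, against 3.83%. PSAE1, PSAF, PSAG, PSAL and FD2, 5 genes, were called lower in every version tried. For these 5 and for the 7 above, the matching share of all tested genes is not given here.

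**Figure D1:**
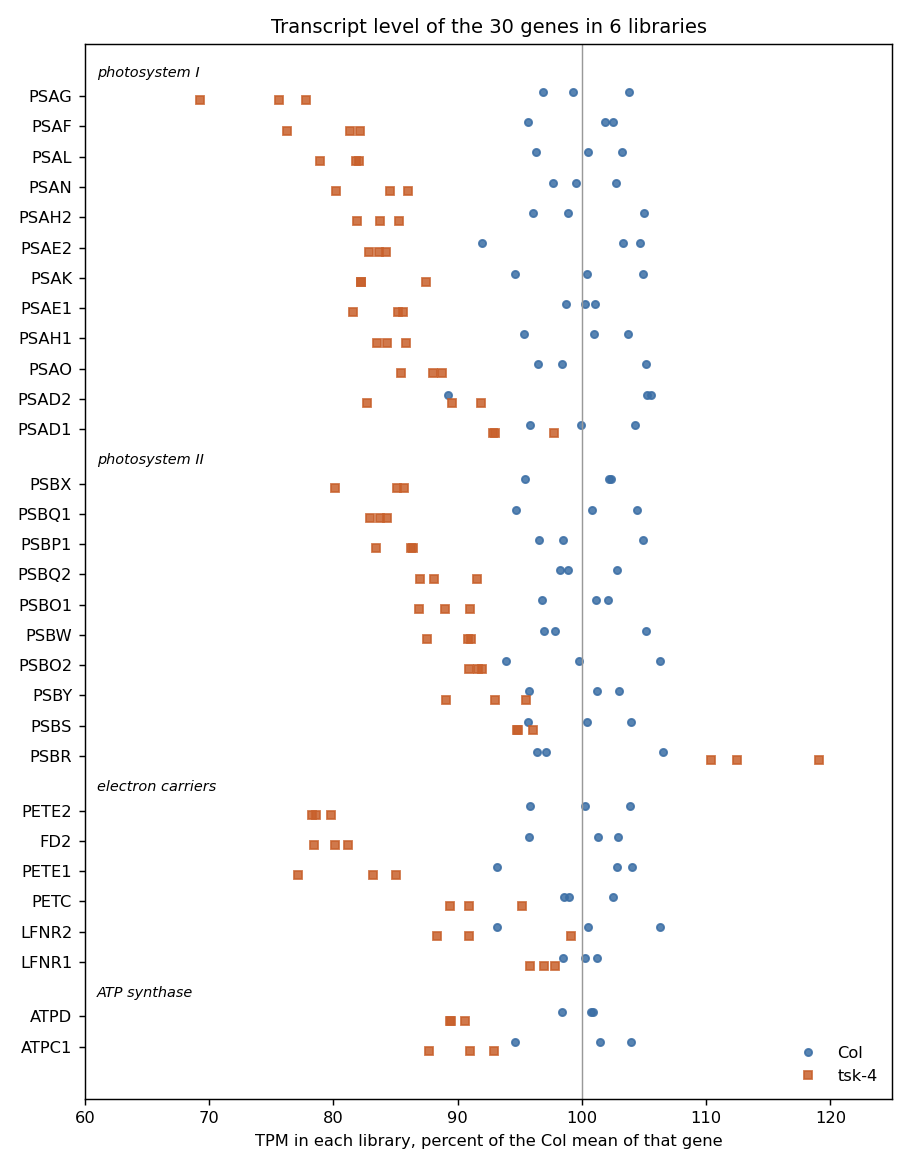
TPM of each of the 30 genes in each of the 6 libraries (x axis, percent of that gene's Col mean; circles Col, squares tsk-4), grouped by complex. In 25 genes the tsk-4 squares all lie to the left of the Col circles, in PSBR all to the right, and in the remaining 4 (PSAD1, PSAD2, PSBS, LFNR2) the groups overlap; quantile normalization turns PSAD1, PSBP1, PSBW, PSBX and PSBY upward.

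The stretches in front of 4 of the genes show what the region holds for a gene that was not called (PSBR), for 2 called lower in every version (FD2, PSAF) and for 1 with several motifs (PSBQ2), called lower on all 6 libraries but in 0 of 6 fits that left out 1 library. Each is the 250 bases before the annotated gene start, 5′ to 3′ on the strand of the gene, from the RefSeq assembly TAIR10.1, and none of the 4 overlaps another annotated gene. Capitals mark matches to 5 motifs known from plant promoters: the G-box CACGTG, bound by light-signalling factors, the I-box GATAAG, the sequence CCAATC linked to GLK factors, TATAAA, and the evening element AAAATATCT.
PSBR chr1:29735702-29735951 (plus strand): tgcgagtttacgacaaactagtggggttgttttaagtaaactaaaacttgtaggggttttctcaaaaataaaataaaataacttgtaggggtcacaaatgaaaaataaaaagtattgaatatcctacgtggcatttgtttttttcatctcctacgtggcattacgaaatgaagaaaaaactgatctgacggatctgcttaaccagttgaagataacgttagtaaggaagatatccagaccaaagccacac
FD2 chr1:22444057-22444306 (plus strand): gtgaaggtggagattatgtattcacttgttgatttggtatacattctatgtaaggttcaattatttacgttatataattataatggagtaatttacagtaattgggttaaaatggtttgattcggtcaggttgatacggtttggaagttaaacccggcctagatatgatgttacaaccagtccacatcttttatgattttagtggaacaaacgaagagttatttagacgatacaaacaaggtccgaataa
PSAF chr1:11216142-11216391 (minus strand): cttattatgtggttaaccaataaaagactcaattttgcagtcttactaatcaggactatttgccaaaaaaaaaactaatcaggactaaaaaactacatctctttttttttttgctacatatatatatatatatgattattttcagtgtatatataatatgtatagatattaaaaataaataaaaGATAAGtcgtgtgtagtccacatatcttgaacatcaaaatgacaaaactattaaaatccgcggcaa
PSBQ2 chr4:2673244-2673493 (minus strand): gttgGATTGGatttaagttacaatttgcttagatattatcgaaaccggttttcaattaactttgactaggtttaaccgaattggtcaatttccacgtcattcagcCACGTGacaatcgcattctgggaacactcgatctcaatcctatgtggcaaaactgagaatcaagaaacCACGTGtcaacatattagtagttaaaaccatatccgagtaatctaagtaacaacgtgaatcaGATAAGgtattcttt
The windows of PSBR and FD2 held none of the motifs. That of PSAF held an I-box starting 66 bases before the gene start, and that of PSBQ2 held G-boxes starting 145 and 77 bases before it, an I-box at 15 and CCAATC, on the other strand, at 246. Motifs were searched on both strands, TATAAA on the strand of the gene only, and 0 pairs of matches overlapped in the 30 windows.

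A G-box lay in the windows of 5 of the 30 genes (16.7%), against 6.49% of the 27443 nuclear protein-coding genes of the table with a full window and 7.61% of those tested. They were PSAE2, PSAH2, PSBQ1, PSBQ2 and ATPD. All 5 were called lower, as were 19 of the 30, but none of them in every version, and PSBQ2 and ATPD in 0 and 1 of 6 fits that left out 1 library. The I-box lay in 8 (26.7%, against 12.3%), of which PSAF, PSAH2, PSAK, PSBQ2 and PETE2 were called lower and PSAD1, PETC and LFNR1 were not. CCAATC lay in 4 (13.3%, against 10.2%), TATAAA in 10 (33.3%, against 32.9%) and the evening element in 1 (3.33%, against 2.36%), ATPC1. In 11 windows there was no match, and 16 of the 30 windows overlap another annotated gene.

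By level these were among the most abundant transcripts of the seedlings. By mean TPM 24 of the 30 stood among the 100 highest genes in Col and 23 in tsk-4. PSBR was the highest of the 30 in both genotypes and LFNR2 the lowest, 23.4-fold apart in Col and 28.7-fold in tsk-4. Depth therefore hardly limits the values: the gene with the fewest reads, PSAG, still had 1887 in the library where it was lowest, and PSBO1 reached 66280 in 1 library, so that counting error was at most 2.302% for any of the 30. The coefficient of variation of a gene over the 3 libraries ran from 1.15% to 9.36% in Col, with a median of 4.21%, and from 0.592% to 6.06% in tsk-4, with a median of 2.46%. The authors' TPM uses the full span of a gene as its length, introns included, which lowers the level of genes with introns. Levels recomputed from reads over exon length kept nearly the same order in Col (Spearman's rho 0.966 over the 30 genes, which share libraries). On that scale PSBR measured 7434, PSBO1 4905, PSBP1 4566 and PSAL 4314 TPM by exon length in Col, and LFNR2 317 and PETE1 317.

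**Figure D2:**
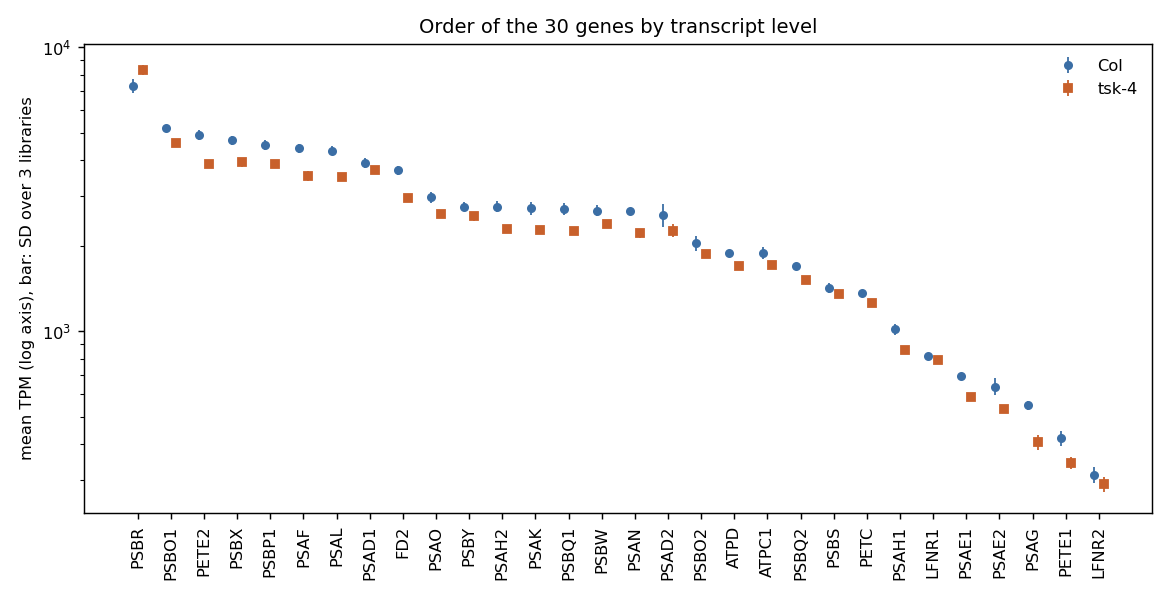
Mean TPM (log axis) of the 30 genes in Col (circles) and tsk-4 (squares), ordered by the Col mean, with the SD over 3 libraries as bars. PSBR, at 7289.6 TPM in Col, stands highest and LFNR2, at 311 TPM, lowest.

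Photosystem I held most of the calls. Of its 12 nuclear genes 10 fell and 0 rose, with a median log2 change of -0.25, and with quantile normalization 6 fell and PSAD1 rose. PSAG (AT1G55670, chromosome 1, 20802670 to 20803449) encodes a membrane subunit that helps to hold the light-harvesting antenna on the core, and on TPM as deposited it showed the largest fall of the 30 genes. It measured 543, 530.3 and 568 TPM in the Col libraries and 426, 379 and 414 TPM in the tsk-4 libraries. The groups did not overlap, tsk-4 2 was lowest, and the mean changed by -25.8% (log2 change -0.43 ± 0.059, limma adjusted p = 0.0015). PSAG shares 479 bases with AT1G55673 on the other strand, which is listed at 0 TPM in all libraries.

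PSAF and PSAL followed. PSAF (AT1G31330, chromosome 1, 11214676 to 11216141) forms the docking site of plastocyanin on the lumen side. Its values were 4485, 4515 and 4213 TPM in the Col libraries and 3582, 3360.3 and 3618 TPM in the tsk-4 libraries. The change was -20.1% (log2 change -0.32 ± 0.056, limma adjusted p = 0.0047), with every tsk-4 library below the lowest Col library. PSAL (AT4G12800, chromosome 4, 7521257 to 7522761), with PSAH and PSAO part of the side of the complex where light-harvesting complex II docks, gave 4346, 4464 and 4164 TPM in the Col libraries and 3540.01, 3413 and 3549 TPM in the tsk-4 libraries. Its groups were as clearly apart, with a change of -19.0% (log2 change -0.30 ± 0.052, adjusted p = 0.0045). PSAN (AT5G64040, chromosome 5, 25628521 to 25629708), a subunit on the lumen side, measured 2588, 2722 and 2637 TPM in the Col libraries and 2125, 2279 and 2241 TPM in the tsk-4 libraries, a change of -16.4% (adjusted p = 0.0093). PSAK and PSAO, small membrane subunits at the antenna side, fell by log2 changes of -0.25 and -0.19 (limma adjusted p = 0.016 and 0.034), and neither group overlapped. PSAK was called lower in 3 of 6 fits that left out 1 library and PSAO in 1 of 6. With quantile normalization PSAN, PSAK and PSAO were not called (limma adjusted p = 0.12, 0.21 and 0.56). With no filter on low values PSAK and PSAO were not called either (0.054 and 0.11).

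Both copies of PSAE and of PSAH were lower, while neither copy of PSAD was called. PSAE is a stromal subunit at the ferredoxin site. PSAE1 (AT4G28750, chromosome 4, 14202758 to 14204061) measured 699, 689 and 705 TPM in the Col libraries and 595, 569 and 597 TPM in the tsk-4 libraries, a change of -15.9% (limma adjusted p = 0.0074). PSAE2 (AT2G20260, chromosome 2, 8736734 to 8737767) measured 587, 659 and 668 TPM in the Col libraries and 538, 534 and 529 TPM in the tsk-4 libraries, a change of -16.4% (adjusted p = 0.018). In both copies the lowest Col library stood above the highest tsk-4 library. PSAH1 (AT3G16140, chromosome 3, 5467987 to 5469594) measured 1051, 1023 and 967 TPM in the Col libraries and 871, 855 and 847 TPM in the tsk-4 libraries (limma adjusted p = 0.012). PSAH2 (AT1G52230, chromosome 1, 19454798 to 19455668) measured 2637, 2881 and 2714 TPM in the Col libraries and 2298, 2340.5 and 2246 TPM in the tsk-4 libraries (adjusted p = 0.011). Their libraries did not overlap either. Of 6 fits that left out 1 library, PSAE1 was called lower in 6, PSAH1 and PSAH2 in 4 each and PSAE2 in 3. With quantile normalization PSAH2 was not called (limma adjusted p = 0.11).

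PSAD is the stromal subunit on which ferredoxin docks, and its copies were the genes of photosystem I without a call on TPM as deposited. PSAD1 (AT4G02770, chromosome 4, 1229031 to 1230164) measured 3916, 4086 and 3754 TPM in the Col libraries and 3639.99, 3646 and 3832 TPM in the tsk-4 libraries. The highest tsk-4 library lay above the lowest Col library, and the log2 change of -0.080 ± 0.055 was not called (limma adjusted p = 0.34; 95% interval -0.20 to 0.044). PSAD2 (AT1G03130, chromosome 1, 753307 to 754262) measured 2703, 2709.99 and 2290.2 TPM in the Col libraries and 2299, 2124 and 2359.7 TPM in the tsk-4 libraries. Here Col 3 stood apart from the other Col libraries and inside the range of tsk-4. The log2 change of -0.18 ± 0.077 was not called either (limma adjusted p = 0.13). Its 95% interval, before adjustment, was -0.35 to -0.0072. PSAO, which was called, had nearly the same log2 change, -0.19, and the difference from PSAD2 was not tested. With limma-voom on recovered reads both PSAD copies were called lower (adjusted p = 0.025 and 0.011). With quantile normalization PSAD1 was called higher (0.12, limma adjusted p = 0.018).

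**Figure D3:**
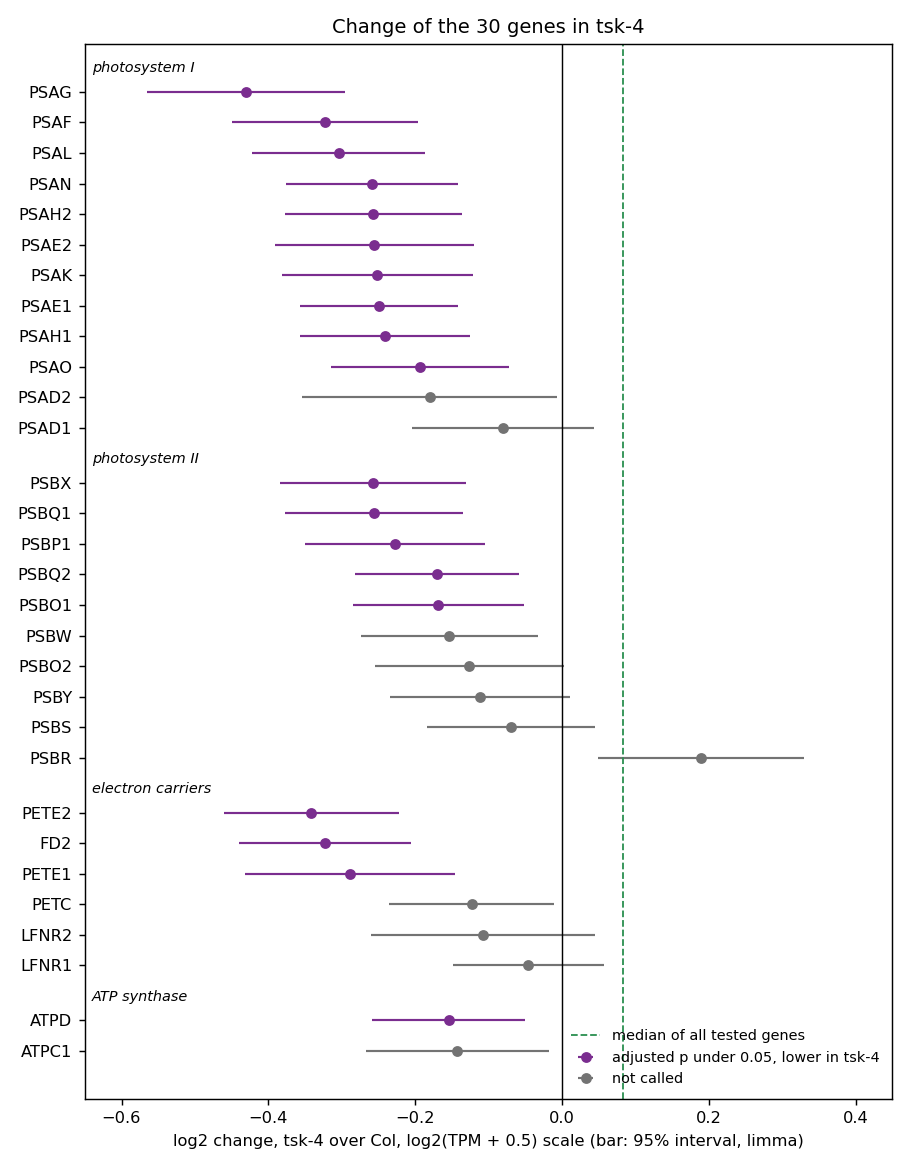
Log2 change of each of the 30 genes (x axis, tsk-4 over Col; points with 95% intervals from limma), grouped by complex, with the median of all tested genes as a dashed line at 0.083. The 19 genes called lower are in purple; PSBR is the 1 gene to the right of 0, and with quantile normalization PSAD1, PSBP1, PSBW, PSBX and PSBY join it there.

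In photosystem II 5 of 10 genes fell and 0 rose on TPM as deposited, with a median log2 change of -0.16, while with quantile normalization 0 fell, PSBR rose and the median was 0.011. The extrinsic proteins of the oxygen-evolving complex accounted for 4 of the 5 falls, but most of these calls were not steady. PSBQ1 was called lower in 5 of 6 fits that left out 1 library, PSBP1 in 2, PSBO1 in 1 and PSBQ2 in 0. PSBO1, PSBP1 and PSBQ2 also lost the call with the replicate number as a block (limma adjusted p = 0.12, 0.061 and 0.095). PSBO, which stabilizes the manganese cluster, has a major and a minor gene. PSBO1 (AT5G66570, chromosome 5, 26568572 to 26570461) measured 5288, 5237 and 5012 TPM in the Col libraries and 4609.96, 4500.2 and 4711 TPM in the tsk-4 libraries, and its call lay just inside the threshold (log2 change -0.17 ± 0.052, limma adjusted p = 0.0496). PSBO2 (AT3G50820, chromosome 3, 18890874 to 18892508) measured 2032, 2165 and 1911 TPM in the Col libraries and 1866, 1851 and 1873 TPM in the tsk-4 libraries, and although its groups did not overlap it was not called (log2 change -0.13 ± 0.057, adjusted p = 0.16).

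PSBP and PSBQ bind beside PSBO and help to retain calcium and chloride. PSBP1 (AT1G06680, chromosome 1, 2047634 to 2049439) went from 4534 ± 199 to 3869.99 ± 76.3 TPM (SD, n = 3 each; limma adjusted p = 0.019). PSBQ1, PSBQA in the annotation (AT4G21280, chromosome 4, 11334352 to 11335815), measured 2713, 2811 and 2547 TPM in the Col libraries and 2233, 2253 and 2268 TPM in the tsk-4 libraries, a change of -16.3% (adjusted p = 0.011). PSBQ2 (AT4G05180, chromosome 4, 2671523 to 2673243), whose upstream window with its G-boxes is printed above, measured 1669, 1680.2 and 1746 TPM in the Col libraries and 1477, 1555 and 1497 TPM in the tsk-4 libraries, a change of -11.1% (adjusted p = 0.041), not called once any 1 library was left out (adjusted p 0.0504 to 0.144). None of these groups overlapped.

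PSBR was higher in every tsk-4 library, unlike its neighbours in the complex, without passing the test. PSBR (AT1G79040, chromosome 1, 29735952 to 29737009), a lumen-side subunit needed for stable binding of PSBP, measured 7078, 7764 and 7026 TPM in the Col libraries and 8681, 8203 and 8045 TPM in the tsk-4 libraries. All tsk-4 libraries lay above all Col libraries, Col 2 being the Col library nearest to them. The log2 change was 0.19 ± 0.062 (95% interval 0.049 to 0.33), not called by limma (adjusted p = 0.062, unadjusted p = 0.014). It was called with quantile normalization (log2 change 0.35, adjusted p = 0.00036) and not with median-ratio scaling (0.098, adjusted p = 0.40) or on recovered reads (adjusted p = 0.22). Within the summed TPM of the 10 photosystem II genes, as deposited, PSBR made up 20.3%, 21.4% and 20.9% across the Col libraries, in order of replicate, and 26.2%, 25.6% and 24.6% across the tsk-4 libraries. PSBR shares 51 bases at its end with RECA1 (AT1G79050) on the other strand, whose level rose from 18.3 ± 0.327 to 22.6 ± 0.725 TPM (limma adjusted p = 0.025), a level far under that of PSBR; that call was lost with median-ratio scaling (adjusted p = 0.084), quantile normalization (0.097) and on recovered reads (0.084).

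The other small subunits were mixed. PSBX (AT2G06520, chromosome 2, 2587729 to 2588448), a small membrane protein of the core, measured 4807, 4816 and 4491 TPM in the Col libraries and 4004, 3769 and 4033 TPM in the tsk-4 libraries, a change of -16.4% (limma adjusted p = 0.013). PSBW (AT2G30570, chromosome 2, 13019028 to 13020311), which helps to hold antenna and core together, measured 2604, 2797 and 2579.8 TPM in the Col libraries and 2423, 2329.6 and 2417 TPM in the tsk-4 libraries and was not called (log2 change -0.15 ± 0.053, adjusted p = 0.075). The groups of both genes were apart. PSBY (AT1G67740, chromosome 1, 25394031 to 25395249), a small membrane subunit, measured 2831, 2780.3 and 2631 TPM in the Col libraries and 2555, 2448 and 2625 TPM in the tsk-4 libraries, with the groups just apart and no call (adjusted p = 0.19). PSBS, NPQ4 in the annotation (AT1G44575, chromosome 1, 16870221 to 16873427), is the protein that senses the acid lumen and switches on the quenching of excess light. It measured 1426, 1477 and 1358 TPM in the Col libraries and 1364, 1348 and 1346 TPM in the tsk-4 libraries, with overlapping groups, a log2 change of -0.070 ± 0.051 and no call (adjusted p = 0.38). On recovered reads PSBW, PSBY and PSBS were called lower (limma-voom adjusted p = 0.0031, 0.0094 and 0.030).

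Among the electron carriers both plastocyanin genes and ferredoxin 2 fell, and the Rieske protein and the reductases were not called. PETE2 (AT1G20340, chromosome 1, 7042046 to 7043392), the major plastocyanin gene, is named DRT112 in the annotation, after a DNA damage tolerance screen. It measured 4930.01, 5109.8 and 4713 TPM in the Col libraries and 3848, 3865 and 3923 TPM in the tsk-4 libraries. The groups stood far apart, and the mean changed by -21.1% (log2 change -0.34 ± 0.053, limma adjusted p = 0.0027). PETE1 (AT1G76100, chromosome 1, 28553883 to 28554930), the minor gene, measured 437, 432 and 391 TPM in the Col libraries and 349, 324 and 357 TPM in the tsk-4 libraries, a change of -18.2% (adjusted p = 0.013). FD2, FED A in the annotation (AT1G60950, chromosome 1, 22444307 to 22445291), is the main leaf ferredoxin. It measured 3793, 3736 and 3530.5 TPM in the Col libraries and 2954, 2893 and 2993 TPM in the tsk-4 libraries, a change of -20.1% with no overlap (log2 change -0.32 ± 0.052, adjusted p = 0.0032). With quantile normalization PETE2 was not called (log2 change -0.051, adjusted p = 0.26), and without Col 2 PETE1 was not.

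PETC (AT4G03280, chromosome 4, 1440146 to 1441863), the Rieske iron-sulphur protein of the cytochrome b6f complex, measured 1350.3, 1398 and 1345 TPM in the Col libraries and 1241, 1299 and 1219.7 TPM in the tsk-4 libraries. The tsk-4 libraries were all lower, but the log2 change of -0.12 ± 0.050 was not called (limma adjusted p = 0.12). The leaf ferredoxin-NADP reductases LFNR1 and LFNR2, FNR1 and FNR2 in the annotation, make NADPH at the end of the chain. LFNR1 (AT5G66190, chromosome 5, 26450964 to 26453199) measured 818, 826 and 804 TPM in the Col libraries and 791, 798 and 781 TPM in the tsk-4 libraries, the smallest difference of the 30 genes in size (log2 change -0.046 ± 0.046, adjusted p = 0.53). LFNR2 (AT1G20020, chromosome 1, 6942625 to 6945091) measured 290.3, 313 and 331 TPM in the Col libraries and 275, 309 and 283 TPM in the tsk-4 libraries, with overlapping groups (log2 change -0.11 ± 0.068, adjusted p = 0.30). Their 95% intervals, -0.15 to 0.057 and -0.26 to 0.046, both include 0. PETC was called lower with median-ratio scaling (adjusted p = 0.034) and on recovered reads (0.0089), and LFNR2 on recovered reads (0.048).

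Of the ATP synthase, ATPD fell and ATPC1 was not called. ATPD (AT4G09650, chromosome 4, 6100714 to 6101864), the delta subunit, measured 1908, 1906 and 1861 TPM in the Col libraries and 1691, 1714 and 1693 TPM in the tsk-4 libraries, a change of -10.1% (limma adjusted p = 0.045). ATPC1 (AT4G04640, chromosome 4, 2350498 to 2352025), the gamma subunit that turns inside the catalytic head, measured 1959, 1911 and 1783 TPM in the Col libraries and 1750.2, 1652 and 1714 TPM in the tsk-4 libraries (log2 change -0.14 ± 0.055, adjusted p = 0.10). The groups were apart in both genes and the changes, -0.15 and -0.14, were close to each other. The call of ATPD was lost with quantile normalization (adjusted p = 0.059), with no filter on low values (0.12) and in 5 of 6 fits that left out 1 library, all but that without Col 3. ATPC1 was called lower with median-ratio scaling (adjusted p = 0.028) and on recovered reads (0.0052). The difference between a called and an uncalled gene of the same complex was not tested here, except within the gene pairs that follow.

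The proportion of the 2 copies of a subunit overlapped between Col and tsk-4 in all 7 pairs. Dividing a library by 1 factor leaves the ratio of the copies as it is, whereas quantile normalization, which shifts genes of 1 library by different amounts, does not; the ratios here are of TPM as deposited. PSAD1 over PSAD2 was 1.45, 1.51 and 1.64 in the Col libraries and 1.58, 1.72 and 1.62 in the tsk-4 libraries, so the groups overlapped (log2 ratio in tsk-4 minus Col 0.10). PSBQ1 over PSBQ2 was 1.63, 1.67 and 1.46 in the Col libraries and 1.51, 1.45 and 1.52 in the tsk-4 libraries, with a log2 difference of -0.086. Their size rested on single libraries: without Col 3 the differences were 0.15 for PSAD and -0.14 for PSBQ, without Col 1 they were 0.061 and -0.067, without Col 2 that of PSBQ was -0.046, and without tsk-4 2 that of PSAD was 0.068. In the remaining pairs the log2 difference was 0.0063 for PSAE1 over PSAE2, 0.016 for PSAH1 over PSAH2, -0.042 for PSBO1 over PSBO2, 0.053 for PETE1 over PETE2 and 0.061 for LFNR1 over LFNR2. With 1 library left out LFNR ran from 0.0055 (without Col 3) to 0.11 (without Col 1), PETE from 0.032 (without tsk-4 3) to 0.092 (without tsk-4 2) and PSBO from -0.021 (without Col 3) to -0.079 (without Col 2), so the pairs have no stable order of size. Two-sided exact permutation tests gave p = 0.3 for PSAD, PSBQ and PETE, 0.4 for PSBO, 0.6 for LFNR, 0.8 for PSAH and 0.9 for PSAE (0.7 to 0.9 adjusted over the 7 pairs); 3 libraries against 3 cannot go below p = 0.1, so no shift could pass 0.05 in this design.

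Which copy dominated differed between subunits. PETE1 made up 7.86% ± 0.245 (Col) and 8.13% ± 0.344 (tsk-4; SD, n = 3) of the plastocyanin TPM, and PSAH1 27.0% ± 1.31 (Col) and 27.2% ± 0.395 (tsk-4; SD, n = 3) of the PSAH TPM. LFNR1 and PSBO1 held most of their pairs, with 72.4% ± 1.5 (Col) and 73.2% ± 1.06 (tsk-4; SD, n = 3) and 71.8% ± 0.907 (Col) and 71.2% ± 0.352 (tsk-4; SD, n = 3). PSAD1 and PSBQ1 held 60.5% ± 1.5 (Col) and 62.1% ± 0.968 (tsk-4; SD, n = 3) and 61.3% ± 1.72 (Col) and 59.9% ± 0.611 (tsk-4; SD, n = 3), and the copies of PSAE were nearly even, at 52.3% ± 1.82 (Col) and 52.4% ± 0.726 (tsk-4; SD, n = 3) for PSAE1. PSAH1 shares 788 bases with ROPGEF13 and PSAE1 436 with AT4G28755, both on the other strand and at 0 TPM in all libraries. PSAH2 shares 174 bases with ROPGEF11 and PSAE2 63 with AT2G20270. The effect of these overlaps on the shares was not tested.

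**Figure D4:**
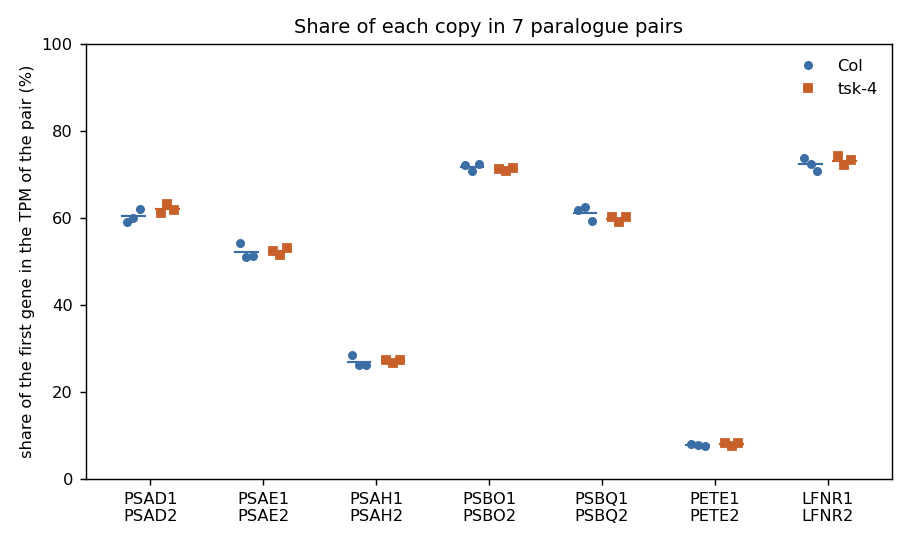
Share of the first-named gene in the TPM of its pair (y axis, percent) for 7 pairs of gene copies, with 1 point per library (circles Col, squares tsk-4) and the mean as a line. The groups overlap in all 7 pairs, and PETE1 has the smallest share, 7.86% in Col.

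Reads from regions that copies share could be assigned to either one. Identity over aligned coding bases was 88.0% for PSAD, 87.0% for PSAH, 83.8% for PSBO, 80.0% for PSBQ, 79.5% for PSAE, 75.3% for LFNR and 75.0% for PETE. The longest run of bases that 2 copies share without a difference, anywhere in their spliced transcripts, was 35 for PSAD and 17 for PETE and for LFNR. The runs of PSAD and PSBO, the longest of the 7 pairs, are printed as the stretches that cannot tell their copies apart.
PSAD1 and PSAD2, coding strand: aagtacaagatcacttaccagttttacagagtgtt
PSBO1 and PSBO2, coding strand: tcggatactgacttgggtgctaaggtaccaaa
The sources used here do not state the read length or what was done with reads of more than 1 possible origin.

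Summed over the 30 genes the level was lower in every tsk-4 library. The genes held 7.94%, 8.22% and 7.68% of the gene TPM across the Col libraries against 7.08%, 6.94% and 7.07% across the tsk-4 libraries, without overlap. The means were 7.94% ± 0.270 and 7.03% ± 0.0795 (SD, n = 3). The sums were lower in tsk-4 for each group, by a change for the carriers of -17.5%, for photosystem I of -15.2%, for the ATP synthase of -9.81% and for photosystem II of -6.66%. The change over the 29 genes without PSBR was -14.1%, against -11.5% with it.

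Within a genotype the libraries also differed. Col 2 was the highest Col library for 18 of the 30 genes and Col 3 the lowest for 21, while tsk-4 2 was the lowest tsk-4 library for 14. Over the 30 genes the log2 change had a Spearman's rho of -0.12 with the mean TPM, 0.45 with the number of introns and 0.46 with the span of the gene. These are descriptions over genes of the same 6 libraries. The 10 genes without introns had a median log2 change of -0.22 and the 20 with introns -0.21. Of the 30 genes 14 lie on chromosome 1, 8 on chromosome 4, 3 on chromosome 2, 3 on chromosome 5 and 2 on chromosome 3. Another annotated gene overlaps 10 of them, of which 7 were called lower, against 12 of the 20 that no other gene overlaps. Whether counting used the strand is not stated in those sources.

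Related gene lists put the 30 genes in context, all by the same fit and each beside the median of 0.083 over all tested genes. Of all tested genes 14.9% were called higher and 4.96% lower. The shares were 9.21% and 8.21% with median-ratio scaling, and 8.71% and 8.48% with quantile normalization. Of 17 tested light-harvesting genes 13 fell and 1 rose, with a median log2 change of -0.28, but with quantile normalization 6 fell and 2 rose. The extremes were LHCB1.4, which fell from 1922 ± 237 to 1057 ± 119.8 TPM, LHCB1.2, with a log2 change of -0.57, and LHCB5, the minor antenna protein CP26, which rose with a log2 change of 0.64 (limma adjusted p = 0.00065, 0.00057 and 9.7e-05). LHCB1 genes are near-identical copies that can share reads, and LHCB1.5 is listed at 0 TPM in every library.

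Further subunits and carriers held calls in both directions. Of 13 genes 10 were tested, 2 rose and 2 fell, against 14.9% and 4.96% of all tested genes. The median log2 change was -0.088. FD1, the minor leaf ferredoxin, fell from 1728 ± 53.1 to 1336 ± 80.5 TPM (limma adjusted p = 0.0029) and PSBTN, a nuclear photosystem II subunit, from 2827 ± 18.9 to 2367 ± 41.3 TPM (adjusted p = 0.0061). The genes that rose were the root-type ferredoxin-NADP reductases. RFNR2 measured 77.8, 82.4 and 122 TPM in the Col libraries and 122, 171 and 136 TPM in the tsk-4 libraries, with overlapping groups (log2 change 0.62 ± 0.17, adjusted p = 0.037), and RFNR1, named after its value was seen, 27.0, 29.2 and 37.5 TPM in the Col libraries and 39.6, 52.4 and 40.1 TPM in the tsk-4 libraries (adjusted p = 0.040). With median-ratio scaling neither was called. The root-type ferredoxin FD3 measured 77.0 ± 14.4 TPM (Col) against 93.4 ± 10.9 TPM (tsk-4) and was not called (adjusted p = 0.16). ATPC2 and FDC1 are listed at 0 TPM in every library.

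The chloroplast NDH complex, which returns electrons from ferredoxin to the plastoquinone pool, moved both ways: of 17 genes 3 rose and 5 fell, with a median log2 change of 0.0059, or 2 and 6 with a median of -0.085 with median-ratio scaling. NDHU rose from 123 ± 2.14 to 232 ± 8.52 TPM (limma adjusted p = 1.5e-05), NDHM rose from 206 ± 2.89 to 272 ± 14.2 TPM and PNSL4, a lumen subunit, fell from 103 ± 3.23 to 71.1 ± 5.09 TPM (adjusted p = 0.0016 and 0.0010). Of 25 assembly factors of the photosystems and the cytochrome complex 5 fell and 0 rose (median -0.14), or 11 with median-ratio scaling. They included CYP38, an immunophilin of photosystem II assembly, from 324 ± 22.2 to 234 ± 2.63 TPM, PPL1, a protein of photosystem II repair, and HCF244, needed to make the D1 protein, with log2 changes of -0.47, -0.42 and -0.29. Of 17 regulators of electron flow KEA3, a thylakoid potassium-proton exchanger, and TIC62, which tethers the reductase, fell and PGRL1B, of cyclic flow, rose, with log2 changes of -0.45, -0.22 and 0.39 (median of the list -0.067), while median-ratio scaling gave 6 lower and 0 higher. The calls of TIC62 (limma adjusted p = 0.04996) and PGRL1B (0.040) lay near the threshold, and PGRL1B was not called with median-ratio scaling (0.11).

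On TPM as deposited, the limma fit without a block called 0 of the plastid-encoded partners of these complexes lower. Of 31 plastid genes 1 rose, psbI, from 71.7 ± 9.76 to 94.0 ± 11.0 TPM by limma with an adjusted p of 0.039, while 0 fell; 4 had an unadjusted p under 0.05, median-ratio scaling called 2 lower and 0 higher, and the median log2 change was 0.16. Their summed TPM was 615 to 685 TPM across Col libraries and 658 to 706 TPM across tsk-4 libraries, so the ranges overlapped. They have few reads over the 6 libraries, from 9 for petG to 774 for psaA and 3110 for atpB, the most. The labels do not say how RNA was selected for the libraries. The test on reads did not cover the plastid genes. With the replicate number as a block 1 of the 31 was called higher and 1 lower, and with quantile normalization 0 higher and 1 lower. The log2 changes ran from -1.23 to 0.997.

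Nuclear regulators of photosynthetic genes were mostly not called. Of 15 genes 2 rose and 1 fell, with a median log2 change of -0.061, but 1 rose and 3 fell with median-ratio scaling and 1 rose and 4 fell with quantile normalization. PIF3 and PIF4, phytochrome-interacting factors that restrain greening and promote elongation, rose from 12.4 ± 1.202 to 24.7 ± 2.36 TPM and from 60.4 ± 4.18 to 80.2 ± 10.9 TPM (limma adjusted p = 0.00044 and 0.022). PIF4 lost its call with median-ratio scaling (adjusted p = 0.061) and quantile normalization (0.091). GNC, a GATA factor that promotes greening, fell from 40.6 ± 3.53 to 31.1 ± 3.57 TPM (limma adjusted p = 0.030). With the replicate number as a block 1 of the 15 regulators was called higher and 0 lower, so GNC lost its call. In the copper list, chosen because plastocyanin carries copper, 5 of 10 rose and 1 fell, against 14.9% and 4.96% of all tested genes. The median log2 change was 0.19. With median-ratio scaling 2 rose and 2 fell, against 9.21% and 8.21%. CCH, a copper chaperone, rose from 328 ± 9.05 to 477 ± 17.4 TPM, FSD1, an iron superoxide dismutase, from 727 ± 26.5 to 886 ± 27.7 TPM and CSD1, a copper/zinc superoxide dismutase, from 23.9 ± 4.41 to 35.9 ± 3.43 TPM (adjusted p = 0.00021, 0.0058 and 0.016).

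**Figure D5:**
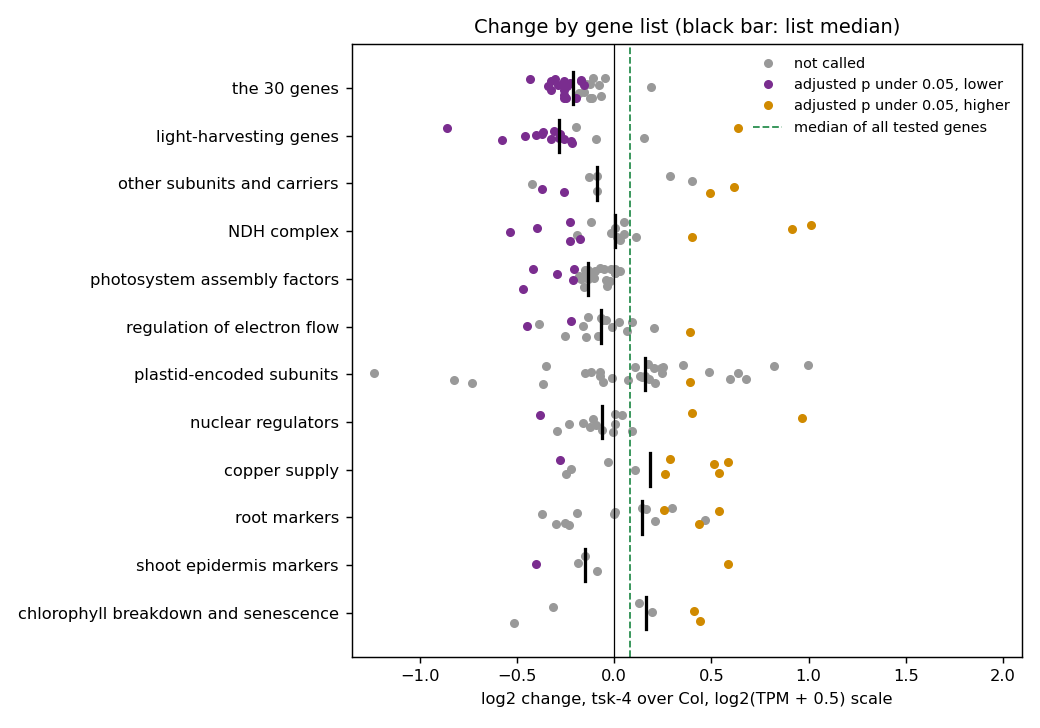
Log2 change (x axis, tsk-4 over Col) of the tested genes of the 30 and of 11 lists, with calls in colour and the list median as a black bar; the dashed line is the median of all tested genes, 0.083. The 30 genes have a median of -0.21 and the light-harvesting genes -0.28, or -0.092 and -0.023 with quantile normalization, and the plastid-encoded subunits 0.16.

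Calls among markers of other tissues are given beside those of all tested genes, of which 14.9% were higher and 4.96% lower. Of 15 root markers 3 rose and 0 fell. The summed TPM of the root markers was 2041 to 2185 TPM across Col libraries and 2470.1 to 2545 TPM across tsk-4 libraries, without overlap; most of it was PYK10, a glucosidase of root and hypocotyl, which rose from 1876 ± 64.2 to 2245 ± 53.7 TPM (limma adjusted p = 0.0085). PRP3 and EXPA18, of root hairs, also rose (log2 changes 0.44 and 0.54), and with median-ratio scaling 2 were higher and 3 lower. The list median was 0.14 and 0 of the 15 were at 0 in all libraries. Shoot epidermis markers summed to 1019 to 1134 TPM across Col libraries and 949 to 1053 TPM across tsk-4 libraries, with overlap; of 5, KCS6, an enzyme of wax synthesis, rose (log2 change 0.59) and PDF1 fell (-0.40). Of 8 genes of chlorophyll breakdown and senescence, 6 of them tested, PAO and NYC1, enzymes that degrade chlorophyll, rose by log2 changes of 0.41 and 0.44 and 0 fell, while median-ratio scaling and quantile normalization each called 1 higher and 1 lower. That list summed to 150.1 to 168 TPM across Col libraries and 185 to 201 TPM across tsk-4 libraries, and its defining senescence gene SAG12 was at 0 in every library. Seed markers summed to 40.7 to 117 TPM across Col libraries and 41.5 to 95.9 TPM across tsk-4 libraries; of 5 tested 0 were called by limma, 0 had an unadjusted p under 0.05 and 0 were called on reads, CRA1 measuring 58.0 ± 34.5 TPM (Col) against 56.8 ± 27.0 TPM (tsk-4) and EM6 13.6 ± 2.71 TPM (Col) against 10.6 ± 1.11 TPM (tsk-4). The 4 pollen markers stayed under 1 TPM, with VGD1 and VGDH1 at 0. The part of any of these in the fall of the photosynthetic genes was not tested.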

How the data were processed

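Total RNA of seedlings was made into libraries with a NEBNext Ultra RNA kit, per the labels' protocols. The authors deposited TPM values per library for genes, TE genes and TE fragments, and only the gene table was used here. The tools listed are HISAT2, fastp 0.20.1, DESeq2 1.26.0 and HTSeq 0.11.2, per the submitters' processing notes, which give TAIR10 as the genome build and no settings. Each library sums to 1000000 TPM. Identifiers of 33056 rows matched the RefSeq annotation (TAIR10.1), whose coordinates are printed 1-based; the 133 others are plastid rows. After multiplication by gene span and 1 constant per library, 100% of the values above 0 in matched rows were whole reads within 0.02. The gene names of the 31 plastid identifiers of the list were assigned by hand. With the length of the RefSeq gene of that name all 31 also gave whole reads. That check cannot tell apart genes of equal length, such as psbA and psbD (both 1062 bases).

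Genes reaching 1 TPM in 3 or more of the 6 libraries were tested with limma 3.58.1 in R 4.3.3 on log2(TPM + 0.5). The fit used a mean-variance trend and Benjamini-Hochberg adjustment over all tested genes. It was also run on simulated reads with changes larger than any of the 30 genes, so that run does not cover changes of their size. limma-voom on recovered reads used at least 10 reads over the 6 libraries and median-ratio scaling. Paralogue ratios were compared with an exact permutation test in SciPy 1.17.1. Alternatives were the pseudocount, the filter, the scaling, nuclear genes only, recovered reads, a replicate block and leaving out each library. Coding sequences were aligned with Biopython 1.88. The genes and lists were chosen with earlier results of these data known. All 30 genes are accounted for, with values per library for gene pairs, for the 8 called genes of largest change, for genes not called and for the highest of each complex; from other lists the 3 called genes of smallest adjusted p, or the 2 of highest TPM.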

Additional observations from a re-analysis of the deposited data

How the results depend on the processing

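The count of genes called lower among the 30 was 19 on TPM as deposited, against 971 of all 19574 tested genes. With no filter on low values it was 12, against 832 of 24535. Quantile normalization called 8 lower, against 8.48% of all tested genes, and 2 higher, where TPM as deposited called 0. With 1 library left out the count ran from 7 (without Col 2, against 501 of 19414) to 22 (without Col 3, against 1162 of 19394). Pseudocounts, nuclear genes only, median-ratio scaling and recovered reads kept the count within 1.5 times. Quantile normalization turned the log2 change of PSAD1 to 0.12, PSBP1 to 0.029, PSBW to 0.033, PSBX to 0.022 and PSBY to 0.080; no other setting turned any of the 30. By construction it gives the top ranks the same values throughout, which takes out part of a joint shift of abundant genes. Over all genes, median-ratio scaling called 1802 higher and 1607 lower, quantile normalization 1704 and 1660 and recovered reads 1954 lower, against 2912 and 971, and leaving out 1 library gave 1783 to 3376 higher and 501 to 1162 lower; the cause was not tested. The shift in the share of the 30 genes was -0.914 percentage points of TPM and -0.619 of recovered reads, which are not divided by length. With 1 library left out the log2 difference of the PSAE ratio ran from -0.028 to 0.067 and that of the PSAH ratio from -0.012 to 0.071, so neither has a direction. The labels do not say whether libraries of the same replicate number belong together. Same-numbered libraries deviated together with correlations of 0.12, -0.087 and -0.11 for numbers 1, 2 and 3, and not every library correlated best with its own number. With 3 libraries per genotype these values cannot decide whether the numbers pair the libraries. With the replicate number as a block 14 of the 30 genes were called lower and 0 higher. Depth does not limit the 30 genes, but it does limit the plastid-encoded list.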
